A study of Mus musculus with 56 samples.

Results

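OVA:Kb-specific CD8+ T cells that were PD1-negative after pregnancy (N+P C1) were compared with the same antigen-specific cells of mice that had never been pregnant (Naive). These cells are fetus/graft-specific T cells (T_FGS), found with OVA:Kb tetramers. The groups were taken from the sample labels: 3 Naive mice with 5 libraries and 3 N+P C1 mice with 6 libraries, 11 of 56 libraries and 6 of 30 samples in the series. All mice were C57BL/6 females, and both groups lacked a graft. Naive mice had no treatment. N+P mice carried a semi-allogeneic pregnancy by 2W-OVA.BALB/c males, which pass the OVA antigen to part of their offspring, and were taken in the first days after delivery. Cells came from spleen and pooled lymph nodes, and each library was made from 200 sorted cells with SmartSeq2. The sort gates differed: N+P C1 was gated as PD1-negative, whereas Naive T_FGS were sorted on tetramer without a PD1 gate. PD1-positive, CD73-positive cells of the same post-partum mice (N+P C5) and T_FGS of mice given a 2W-OVA.BALB/c skin graft and no pregnancy (Sensitized) are given beside some genes as reference levels.

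A naive CD8+ T cell circulates through lymphoid organs with the homing receptor CCR7, and keeps quiescence factors such as TCF1 (*Tcf7*), LEF1 and SATB1. On meeting antigen it can gain integrins, granzymes, chemokines and cytokines as an effector or memory cell. Persistent antigen can lead to inhibitory receptors such as PD1 (*Pdcd1*) and LAG3, and to the factor TOX, which are known from exhausted and anergic cells. The comparison asks how far PD1-negative cells after pregnancy differ in RNA from cells that saw no pregnancy.

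Total counts ranged from 26400797 to 32226374 in Naive mice and from 28835448 to 39570779 in N+P C1 mice. Naive replicate 1 rests on 1 library, since its other column held the same counts as a library of another group and was left out. Between 12829 and 19796 genes had a count in Naive and between 16036 and 17083 in N+P C1 (exact permutation test, two-sided p = 0.8, where 3 against 3 mice allow no p below 0.1). Mitochondrially encoded genes took 2.12% to 3.68% of counts in Naive, 3.45% and 3.62% in N+P C1 replicates 2 and 3, and 9.57% in N+P C1 replicate 1. The rRNA gene *Rn18s-rs5* took the largest share of every sample, with 20.1% to 21.5% in Naive and 9.27% to 22.3% in N+P C1. Across genes, which are not independent replicates, Pearson's r of log2 levels was 0.834 to 0.865 between Naive mice, 0.859 to 0.873 between N+P C1 mice and 0.830 to 0.880 for pairs across these groups. These ranges overlapped. Transcripts of the Y-linked genes *Ddx3y*, *Uty*, *Kdm5d* and *Eif2s3y* were at 0 CPM (counts scaled to the sample's total) in all 6 samples.

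No gene passed the thresholds (adjusted p under 0.1 and absolute log2 fold change above 0.9) in edgeR's quasi-likelihood test, which is 0.0% of the 19657 genes tested. The lowest adjusted p was 0.464. At an unadjusted p under 0.05 there were 634 genes, of which 363 were higher in N+P C1 (1.85% of genes tested) and 271 lower (1.38%). In 830 genes (4.22%) every N+P C1 mouse lay above every Naive mouse, and in 605 (3.08%) every N+P C1 mouse lay below. For 1 gene such a separation has p = 0.1 in an exact permutation test of 3 against 3 mice. It is thus found in many genes without any difference between groups, and is no evidence by itself. The count depended on the tool: DESeq2 on the same summed counts called 610 genes, 336 higher and 274 lower. Of these, 592 had 3 counts or fewer in every sample of 1 group, and the samples of only 86 did not overlap. With Naive and N+P C1 alone, an alternative chosen after seeing the data, DESeq2 called 214 genes. Of the 214, 103 had 3 counts or fewer in every sample of 1 group, 65 had a mean of at least 10 CPM and 185 did not overlap. The other samples in the fit also help to set the spread. Without 3 samples of other groups that had under 9000 genes detected, edgeR called 19 genes (0.0972%), all higher in N+P C1. Values below are log2 CPM differences from the fit of all groups, with their standard error (SE), and none of them is called unless the sentence says so.

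**Figure D1:**
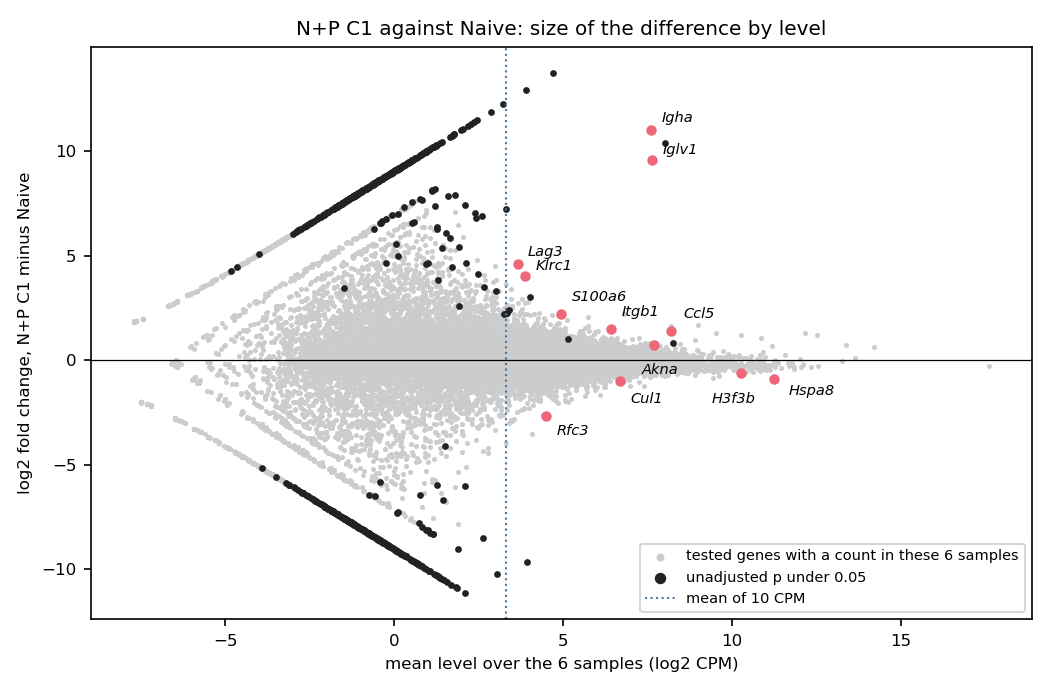
Log2 fold change of N+P C1 minus Naive against the mean level over the 6 samples on a log2 axis, one point per tested gene, with genes at an unadjusted p under 0.05 in black and named genes in red. The black points lie mostly left of the dotted line at 10 CPM, and those on the 2 outer slanted lines have counts in samples of only 1 group; to the right of it 18 genes are at an unadjusted p under 0.05.

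With 3 mice a group the differences were not measured closely. Of 7948 genes with a mean of at least 10 CPM, 18 had an unadjusted p under 0.05, 16 higher and 2 lower in N+P C1. The median SE of these 7948 genes was 1.22 on the log2 scale. The 95% interval of the difference lay within -1 to 1 in 200 of them (2.52%) and within -2 to 2 in 1746 (21.97%). In most genes the interval thus reached past 2-fold in at least 1 direction.

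The T cell identity of both groups was measured well. *Cd8a*, a chain of the CD8 co-receptor, was at 1414, 943 and 1024 CPM in Naive and at 968, 952 and 814 in N+P C1, with a log2 difference of -0.31 (95% interval -0.92 to 0.30). *Cd8b1*, its partner chain, differed by -0.20 (-0.89 to 0.48), and *Trac*, the T cell receptor alpha constant region, by -0.45 (-1.11 to 0.21). None of 14 identity genes had an unadjusted p under 0.05, their median log2 fold change was -0.10 beside 0.0 over all genes tested, and the interval of 8 of the 14 lay within -1 to 1. *Cd4* was at 0.364 CPM in Naive replicate 2 and 0 in the other 5 samples.

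The naive and quiescence programme was present in N+P C1 at levels that overlapped those of Naive in most of its genes. None of its 22 genes had an unadjusted p under 0.05 in either direction, and the median difference was 0.13. In 3 of the 22 every N+P C1 mouse lay above every Naive mouse, where 4.22% of all genes tested did. In 0 every N+P C1 mouse lay below, where 3.08% of all genes did. Some other edgeR fits gave list members that were higher at an unadjusted p under 0.05. With Naive and N+P C1 alone there were 2, where 1.83% of all genes were higher. With N+P C5 added there were 3 (2.95% of all genes) and with the replicate number as a block 5 (2.22% of all genes). The summed level of the 22 genes was 9773 to 14560 CPM in Naive and 12830 to 12990 in N+P C1, so the 3 post-partum mice sat inside the Naive range. The low end of that range is Naive replicate 1, which rests on 1 library. *Tcf7*, which encodes TCF1, was at 663, 709 and 831 CPM in Naive and at 688, 786 and 874 in N+P C1 (log2 difference 0.09, interval -0.84 to 1.02). *Lef1* differed by -0.07 (-1.48 to 1.35), *Satb1*, a chromatin organizer, by 0.17 (-1.17 to 1.504) and *Il7r*, the receptor for the survival cytokine IL-7, by -0.12 (-1.28 to 1.05).

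*Ccr7*, the lymph node homing receptor, was at 1315, 1363 and 1095 CPM in Naive and at 1379, 888 and 446 in N+P C1, with a wide interval of -2.14 to 1.19. *Bcl2*, an inhibitor of cell death, lay higher in every N+P C1 mouse (354, 336 and 508 CPM) than in any Naive mouse (135, 309 and 210.5), with a log2 difference of 0.87, SE 0.53 and unadjusted p = 0.11 in edgeR's test. *Cd44*, an adhesion receptor that is high on antigen-experienced cells, was at 26.1, 55.1 and 71.1 CPM in Naive and at 41.7, 50.03 and 54.6 in N+P C1. Its difference of -0.06 had an interval of -1.06 to 0.95, and the mean in N+P C1 was 18.2% of that in N+P C5. With scaling by library size the sign turned for *Cd44* (0.06), *Lef1* (0.06) and *Tox* (0.05), all near 0 in either case.

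Among the lists of known function, the effector and memory genes held the most members at a low unadjusted p. Of 38 genes tested, 9 had an unadjusted p under 0.05 and were higher in N+P C1, 23.7% of the list beside 1.85% of all genes, and 0 were lower. The list was chosen with earlier results of these data known, so this share is no independent support. None of the list was called in the edgeR fit of all groups. DESeq2 on summed counts called 5 of the 38 (610 of all 40335 genes), and with Naive and N+P C1 alone 6 (214 of 26265). Without the 3 samples with few genes edgeR called 5 (19 of 19553). On separate libraries edgeR called 4 (9 of 16536) and DESeq2 8 (553 of 40347). Those 2 fits treat the libraries of a mouse as independent and overstate the evidence. The other fits called 0 or 1. The median log2 fold change of the list was 0.79 (0.502 without N+P C1 replicate 1) beside 0.0 over all genes, 32 of 38 members had a positive difference, and every N+P C1 mouse had a higher summed level (6363, 4043 and 4580 CPM) than any Naive mouse (3727, 3546 and 3744). The count of genes at an unadjusted p under 0.05 was 6 without N+P C1 replicate 1, 10 without replicate 2 and 8 without replicate 3. It was 9 without any one of the Naive mice, though which genes made it up varied. It was 3 (*Fasl*, *Itgb1* and *S100a6*) when the doubled column was kept in Naive replicate 1.

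**Figure D2:**
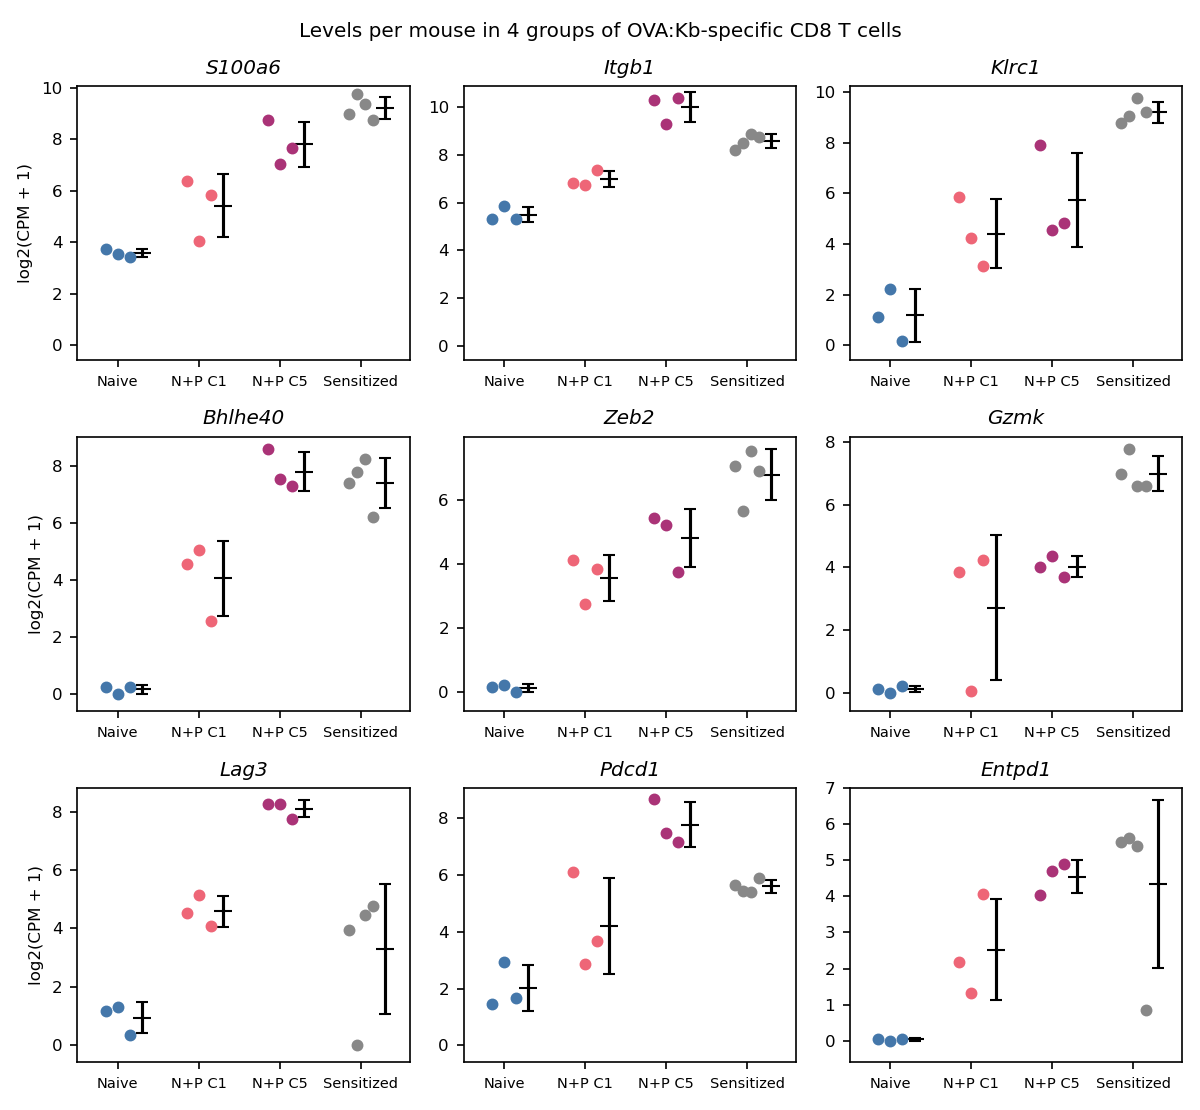
Level per mouse as log2(CPM + 1) of 9 genes in Naive, N+P C1, N+P C5 (3 mice each) and Sensitized (4 mice), with the mean and SD of the log values as black bars. In S100a6, Itgb1, Klrc1, Bhlhe40, Zeb2, Lag3 and Entpd1 the 3 N+P C1 mice lie above the 3 Naive mice, while in Gzmk N+P C1 replicate 2 lies among the Naive mice.

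*S100a6*, a small calcium-binding protein that is abundant in memory T cells, was at 12.3, 10.8 and 9.71 CPM in Naive and at 81.9, 15.4 and 55.97 in N+P C1. The Naive mice were close together, and N+P C1 replicate 2 was only slightly above them. The log2 difference was 2.23 (SE 0.54, 95% interval 1.12 to 3.33, unadjusted p = 0.000256, adjusted p = 0.997 in edgeR's test). The 3 N+P C5 mice were at 427.7, 129 and 200.2 CPM, and the Sensitized mice at 617 ± 193 (SD, n = 4). The gene is at chr3:90520140-90535843 (GRCm39).

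*Itgb1*, the integrin beta 1 chain that pairs with several alpha chains to bind matrix, was at 38.5, 56.9 and 38.95 CPM in Naive and at 114, 105 and 162 in N+P C1. All 6 N+P C1 libraries (85.9 to 267 CPM by library size) lay above all 5 Naive libraries (14.9 to 81.8). Libraries of a mouse are not independent, so the separation is still one of 3 against 3 mice. The log2 difference was 1.502 (SE 0.51, interval 0.46 to 2.54, adjusted p = 0.997 in edgeR's test). It was the 1 gene that passed the thresholds between N+P C5 and N+P C1 (0.00509% of genes tested), with 1265, 631 and 1350 CPM in N+P C5, a log2 difference of 3.09 and adjusted p = 0.0499 in edgeR's test of all groups, which does not pair the gates of a mouse. With N+P C1 and N+P C5 alone and the mouse as a block, an alternative chosen after seeing the data, 29 genes passed (0.219% of genes tested), and *Itgb1* differed by a log2 value of 3.045 (SE 0.198, adjusted p = 0.0273 in edgeR's test). *Itga4*, an alpha chain that can pair with it, was at 72.5, 159 and 168 CPM in Naive and at 216, 246 and 219 in N+P C1 (log2 difference 0.77, SE 0.44).

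*Klrc1*, which encodes the lectin-like receptor NKG2A, was at 1.19, 3.71 and 0.113 CPM in Naive and at 56.7, 18.1 and 7.70 in N+P C1 (log2 difference 4.03, SE 1.25). *Ccl5*, a chemokine stored by memory cells, was at 234, 120 and 126 CPM against 554, 175 and 550, where N+P C1 replicate 2 fell inside the Naive range (1.42, SE 0.68). *Ifng*, the effector cytokine interferon gamma, was at 5.19, 4.91 and 0.0756 CPM against 26.2, 10.1 and 11.2 (2.22, SE 0.995). *Fasl*, the death ligand, was at 4.82, 0.0331 and 5.29 CPM against 34.04, 5.33 and 13.7 (2.39, SE 1.14). In each of these genes N+P C1 replicate 1 had the highest level of the 6 samples.

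A further set was close to absent in Naive and present in N+P C1. *Bhlhe40*, a transcription factor of activated and tissue-resident T cells, was at 0.206, 0 and 0.189 CPM in Naive and at 22.3, 31.98 and 4.97 in N+P C1 (log2 difference 7.22, SE 1.65, adjusted p = 0.828 in edgeR's test). *Zeb2*, a transcription factor of terminally differentiated effector cells, was at 0.123, 0.166 and 0 CPM against 16.6, 5.82 and 13.3 (6.89, SE 1.89). *Gzmk*, a granzyme of memory cells, was at 0.0823, 0 and 0.151 CPM against 13.4, 0.0348 and 17.9 (7.03, SE 1.47, adjusted p = 0.464 in edgeR's test), so that N+P C1 replicate 2 was as low as the Naive mice.

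These genes could be present in one library of a mouse and at or near 0 in the other. *Bhlhe40* had 0 and 173 counts in the 2 libraries of N+P C1 replicate 3. *Zeb2* had 0 and 167 counts in those of replicate 2 and 0 and 465 in those of replicate 3. *Gzmk* had 432 and 13 counts in those of replicate 1. With 200 cells in a library, fewer cells that hold a transcript and less RNA per cell cannot be told apart, in these and in all genes given here. Granzyme B was less clear: *Gzmb* was at 0.206, 8.29 and 0.0378 CPM in Naive and at 34.3, 4.84 and 9.45 in N+P C1, so the groups overlapped. It was higher at an unadjusted p under 0.05 in edgeR's test without Naive replicate 2 and with library B alone, but not with all samples. Perforin did not show the pattern: *Prf1* was lower in every N+P C1 mouse (110, 95.5 and 69.8) than in any Naive mouse (120, 115 and 118). Its log2 difference was -0.35 (SE 0.63).

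Inhibitory receptors and factors of exhausted cells gave 4 of 22 members higher at an unadjusted p under 0.05, *Pdcd1*, *Lag3*, *Entpd1* and *Tnfsf4*, and 1 lower, *Tox2*, where 1.85% and 1.38% of all genes were. This list too was chosen with earlier results of these data known. None of the list was called in the edgeR fit of all groups. DESeq2 called 2 on summed counts (610 of all 40335 genes) and 2 with Naive and N+P C1 alone (214 of 26265). Without the 3 samples with few genes edgeR called 1 (19 of 19553), as it did with N+P C5 as the only other group (3 of 14343). On separate libraries edgeR called 1 (9 of 16536) and DESeq2 4 (553 of 40347). Those 2 fits treat the libraries of a mouse as independent. The other fits called 0. The count of higher genes at an unadjusted p under 0.05 was 2 without N+P C1 replicate 1 (*Entpd1* and *Lag3*). It was 2 with the doubled column kept in Naive replicate 1 (*Entpd1* and *Tnfsf4*). The median difference was 0.41. *Lag3*, a receptor that binds MHC class II and restrains T cells, was at 1.24, 1.49 and 0.265 CPM in Naive and at 22.2, 34.4 and 16.1 in N+P C1. All 6 N+P C1 libraries (7.31 to 37.8 CPM by library size) lay above all 5 Naive libraries (0 to 3.20). As for *Itgb1*, these libraries come from only 3 and 3 mice. The log2 difference was 4.598 (SE 1.76, interval 1.02 to 8.18, adjusted p = 0.997 in edgeR's test), and the mean of N+P C1 was 8.70% of the 279 ± 53.6 CPM (SD, n = 3) in N+P C5.

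*Pdcd1*, the transcript of the receptor on which the gate was set, was still found in N+P C1. It was at 1.73, 6.66 and 2.19 CPM in Naive and at 68.4, 6.27 and 11.9 in N+P C1, so replicate 1 stood far above the other 5 samples and replicate 2 within the Naive range. The log2 difference was 3.03 (SE 1.401, unadjusted p = 0.0383, adjusted p = 0.997 in edgeR's test). It was 1.365 without N+P C1 replicate 1, and the unadjusted p was above 0.05 without this mouse, without Naive replicate 1 or 3, with the doubled column kept and with the replicate block. The mean in N+P C1 was 11.8% of that in N+P C5, where it was at 415, 178 and 143 CPM. Both libraries of N+P C1 replicate 1 held it (707 and 1564 counts), while in replicate 2 one library had 1 count and the other 179.

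*Entpd1*, the ectoenzyme CD39 that starts the breakdown of extracellular ATP, was at or under 3 counts in every Naive sample and at 3.52, 1.498 and 15.8 CPM in N+P C1, at least 62.1-fold higher against a floor of 3 counts per sample. The bound was 22.4-fold without N+P C1 replicate 3, whose 552 counts all came from 1 of its 2 libraries. *Tnfsf4*, the ligand OX40L, rested on 1 sample, with 6.75 CPM in N+P C1 replicate 1 and 0 in the other 5. *Tox2*, a relative of TOX, rested on 1 sample as well, with 1.56 CPM in Naive replicate 2 and 0 in the other 5. In N+P C5 they were at 23.8 ± 6.60 and 12.3 ± 5.28 CPM (SD, n = 3), respectively.

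TOX itself, *Tigit*, *Nt5e* and *Izumo1r* had an unadjusted p above 0.05. *Tox*, the regulator of the exhausted state, was at 66.4, 79.1 and 88.0 CPM in Naive and at 93.4, 59.9 and 74.8 in N+P C1. Its difference was -0.03 with an interval of -1.22 to 1.15, beside 187.5, 240.5 and 329 CPM in N+P C5. *Tigit*, a receptor for CD155, was at 0.206, 11.1 and 9.07 CPM against 30.04, 9.41 and 13.96 (1.39, SE 1.12). *Nt5e*, which encodes the CD73 used in the C5 gate, was at 25.0, 63.2 and 51.7 CPM against 66.5, 29.7 and 94.2 (0.45, interval -2.11 to 3.002), and *Izumo1r*, the folate receptor FR4, differed by -0.08 (-2.79 to 2.63). These intervals are wide enough to hold a change of 4-fold in either direction for *Nt5e* and *Izumo1r*.

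**Figure D3:**
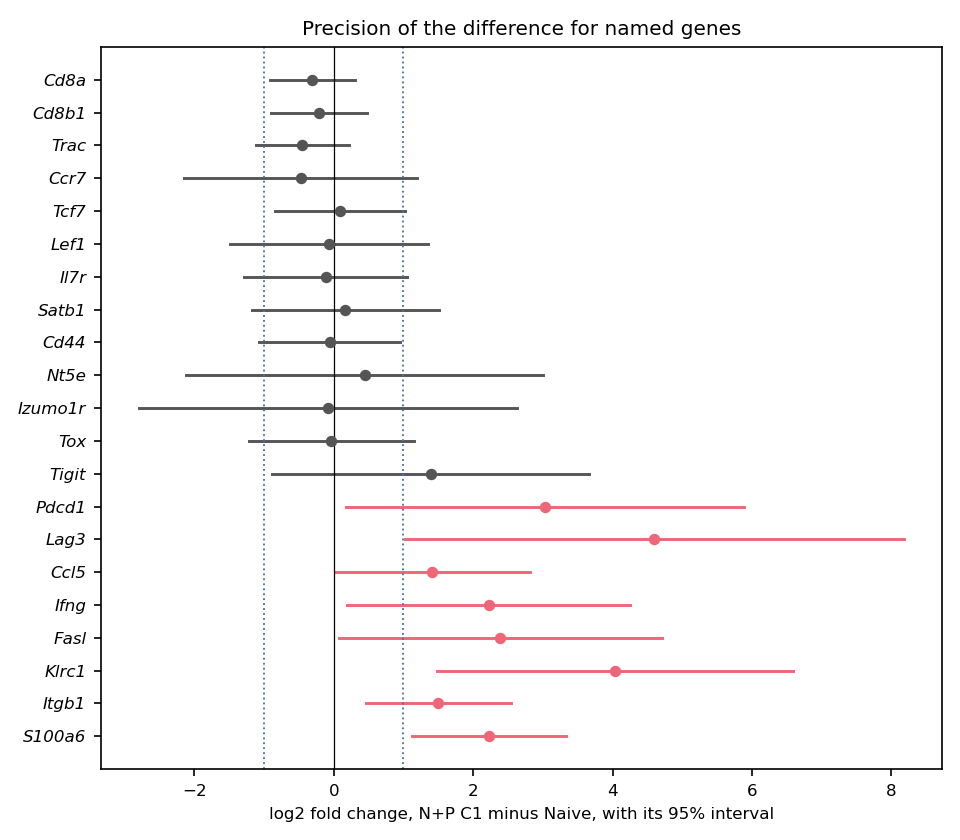
Log2 fold change of N+P C1 minus Naive with its 95% interval for named genes, in red where the unadjusted p is under 0.05 and with dotted lines at -1 and 1. The intervals of the identity and naive genes include 0, from Ccr7 at -0.48 to Satb1 at 0.17, while those of Itgb1, S100a6, Klrc1 and Lag3 lie above 0.

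The 19 genes that edgeR called once the 3 samples with few genes were left out included *S100a6*, *Itgb1*, *Bhlhe40*, *Zeb2*, *Gzmk* and *Entpd1*. The others were *Casp9*, *Cybb*, *Elmo3*, *Endod1*, *Hip1*, *Naip5*, *Nrp1*, *Ptprj*, *Slamf7*, *Tmprss13*, *Ttc39c*, *F730043M19Rik* and *Gm37004*. In 16 of the 19 the samples did not overlap, where 4.22% of all genes tested lay higher without overlap. The 19 were picked by a test of these same samples, so this adds no support. In 10 of the 19 every Naive sample had 3 counts or fewer. Only 3 of the 19 had a mean of at least 10 CPM over the 6 samples. The mean level was higher in N+P C5 than in N+P C1 for 18 of them, the exception being *Elmo3*.

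*Casp9*, the initiator caspase of the mitochondrial death pathway, had 0 counts in all 5 Naive libraries and 17.7, 9.48 and 16.2 CPM in N+P C1, at least 129-fold higher. Its libraries also differed within a mouse, with 0 and 563 counts in those of N+P C1 replicate 3. The *Casp9* gene at chr4:141520923-141546508 overlaps *Cela2a* and *Gm56298* on the other strand, and the strand setting of the counting is not given in the sources used here. *Nrp1*, a co-receptor for semaphorins that is found on regulatory and tolerant T cells, was at 0.0823, 1.69 and 0 CPM in Naive and at 11.3, 4.08 and 16.05 in N+P C1. Its mean in N+P C1 was 3.67% of that in N+P C5. *Slamf7*, a receptor of the SLAM family on cytotoxic cells, was at 17.7, 8.22 and 7.93 CPM against 28.3, 41.7 and 43.0 (log2 difference 1.74, SE 0.85). *Cybb*, a subunit of the NADPH oxidase, had 0, 0.0331 and 0 CPM against 2.35, 3.59 and 7.06, at least 38.7-fold higher.

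Between N+P C5 and Naive 8 genes passed the thresholds (0.0407% of genes tested), and between Sensitized and Naive 30 did (0.153%). Both comparisons use the same 3 Naive mice as N+P C1 does, so only levels are set side by side. Apart from *S100a6* and *Itgb1* above, the 8 genes were *Bhlhe40*, *Gzmk*, *Ttc39c*, *Endod1*, *Entpd1* and *AU020206*. For *Bhlhe40* the mean was 0.132 CPM for Naive, 19.8 for N+P C1, 239 for N+P C5 and 188 for Sensitized mice. In the same order *Gzmk* had means of 0.0778, 10.5, 15.5 and 133 CPM, and *Ttc39c* had 0, 6.53, 22.9 and 44.1. *Endod1* had 0.0789, 5.77, 63.6 and 27.5 CPM, and *Entpd1* had 0.0263, 6.96, 23.1 and 33.5. *AU020206* had 34.4 ± 17.4, 69.4 ± 22.3 and 223 ± 51.5 CPM (SD, n = 3) for the first 3 of these groups. In these 6 genes the mean of N+P C1 lay between those of Naive and N+P C5. They were picked as different between N+P C5 and the same Naive mice, so this position is partly set by the choice.

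The genes called in grafted mice after pregnancy were called between groups that hold none of these mice. The 14 genes called between S+P C5 and Sensitized (PD1-positive, CD73-positive T_FGS of grafted mice after pregnancy against grafted mice without it) gave 0 at an unadjusted p under 0.05 between N+P C1 and Naive, with a median difference of -0.14. The 6 called between S+P C7 and Sensitized gave 0, with a median of -0.04 (0.24 without Naive replicate 2). *Tox*, *Tigit*, *Il7r* and *Satb1* belong to the first list, with the values above. *Ly6c2*, a marker of memory and effector cells in the same list, was at 275, 304 and 387 CPM in Naive and at 992, 442 and 470 in N+P C1 (0.98, SE 0.70).

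**Figure D4:**
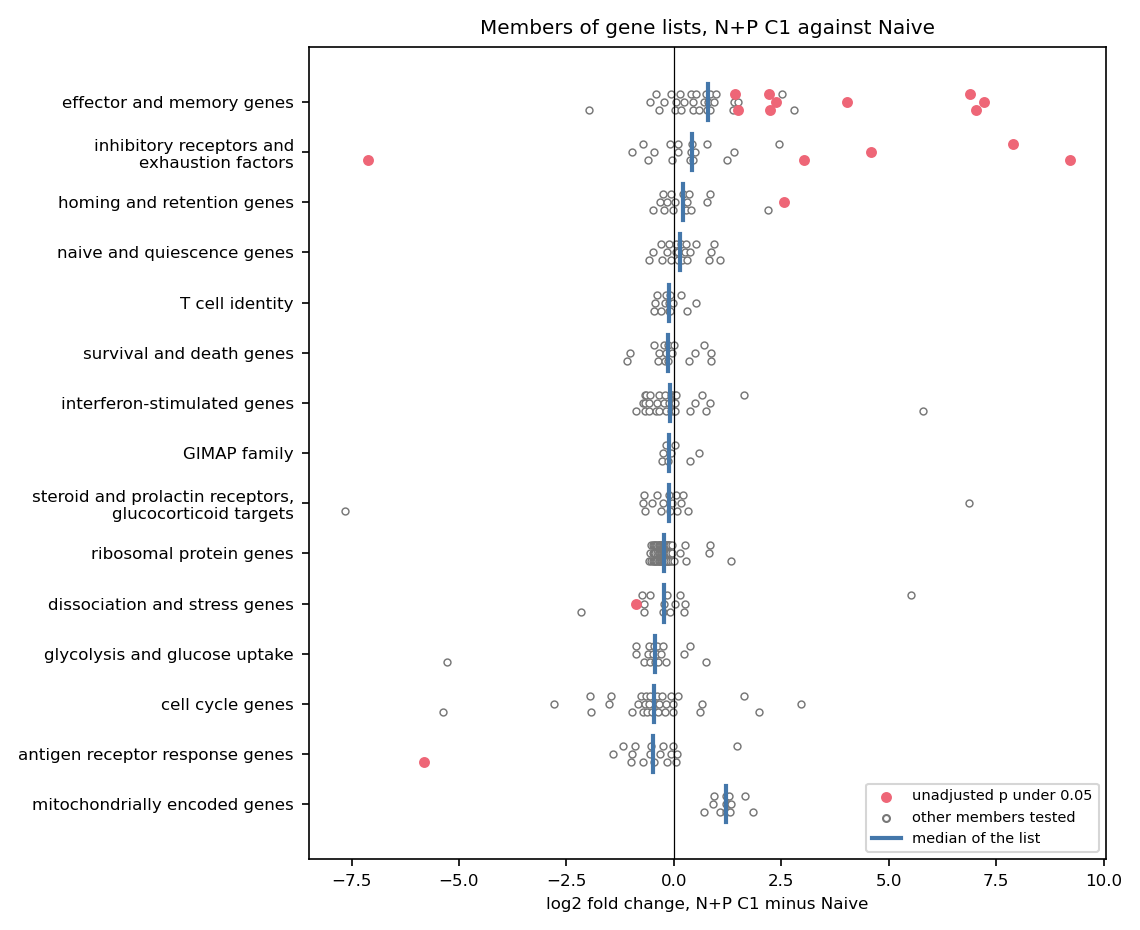
Log2 fold change of N+P C1 minus Naive for every tested member of 15 gene lists, with the list's median as a blue bar and members at an unadjusted p under 0.05 in red. The effector and memory list holds 9 red members, all to the right of 0, and the naive and T cell identity lists hold none.

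Other groups of genes gave few members at a low unadjusted p. The interferon-stimulated list had 0 of 34 (median -0.09), the list of survival and death genes 0 of 17 (-0.14, but 0.11 without Naive replicate 1), the GIMAP family of lymphocyte GTPases 0 of 8 (-0.10, but 0.0106 without N+P C1 replicate 3), and the list of steroid and prolactin receptors with glucocorticoid targets 0 of 17 (-0.12, but -0.47 without Naive replicate 1). Genes induced by the antigen receptor had 0 higher and 1 lower of 18, *Il2ra*, which rested on 4.24 CPM in Naive replicate 2, and a median of -0.49 (-0.76 without N+P C1 replicate 1 and -0.16 without Naive replicate 1). *Nr4a1*, an immediate early gene of T cell receptor signalling, was lower in every N+P C1 mouse (72.8, 45.8 and 34.1 CPM) than in any Naive mouse (118, 93.4 and 88.5; log2 difference -0.97, SE 1.27).

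Cell cycle genes (0 of 32, median -0.46, but 0.04 without Naive replicate 1) and glycolysis genes (0 of 19, median -0.45) also had medians below 0. Of 85 ribosomal protein genes 79 had a negative difference, with a median of -0.24 and 0 at an unadjusted p under 0.05. Their summed level was 138000, 116600 and 122000 CPM in Naive and 120800, 108600 and 84650 in N+P C1, where replicate 3 was lowest. Under scaling by library size the median of all genes moved by 0.05. The 13 mitochondrially encoded genes all had a positive difference, with a median of 1.21 (0.39 without N+P C1 replicate 1) and 0 at an unadjusted p under 0.05. Their sum was 63160 CPM for N+P C1 replicate 1, beside 16020 and 22110 for its group mates and 12740 to 19240 in Naive.

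Among genes with a mean of at least 10 CPM that were lower in every N+P C1 mouse, none had an unadjusted p under 0.05. The 10 leading genes were *H3f3b*, *Rfc3*, *Cul1*, *Sytl2*, *Tfdp1*, *Osm*, *Mif*, *Stmn1*, *Mlh3* and *Ifi47*. *H3f3b*, a replication-independent histone H3.3 gene, was at 1630, 1619 and 1224 CPM in Naive and at 928, 1036 and 926 in N+P C1 (log2 difference -0.63, SE 0.34, unadjusted p = 0.0724 in edgeR's test). *Cul1*, the scaffold of SCF ubiquitin ligases, was at 137, 152 and 124 CPM against 59.2, 67.8 and 83.4 (-0.97, SE 0.55), and *Rfc3*, a subunit of the clamp loader of DNA replication, at 52.5, 18.4 and 45.5 against 8.16, 7.46 and 2.81 (-2.66, SE 1.47). The dissociation and stress list had 1 of 15 lower at an unadjusted p under 0.05 and 0 higher, with a median of -0.24 (-0.93 without N+P C1 replicate 1). That gene was *Hspa8*, a constitutive heat shock protein (unadjusted p = 0.0402 in edgeR's test), whose groups overlapped, with 5825, 1995 and 1746 CPM in Naive against 2145, 1802 and 1223.

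Of the leading genes that were higher, *Ctla2a*, an inhibitor of cathepsin L-like proteases, was at 26.7, 26.5 and 17.3 CPM in Naive and at 53.5, 57.7 and 32.9 in N+P C1 (log2 difference 1.03, SE 0.48). *Akna*, an AT-hook protein, was at 131, 160 and 183 CPM against 223, 297 and 259 (0.72, SE 0.34). The other leading genes included *S100a6*, *Itgb1*, *Klrc1* and *Lag3*, given above, and immunoglobulin genes.

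Immunoglobulin transcripts stood among the leading genes. *Igha*, the IgA heavy chain constant region, was at 0.0412, 0.0663 and 0.453 CPM in Naive and at 3.98, 955 and 209 in N+P C1 (unadjusted p = 0.018 in edgeR's test). *Iglv1*, a lambda light chain variable gene, was at 0, 1.49 and 0.0378 CPM against 2.77, 1136 and 45.7 (log2 difference 9.57, SE 3.63). Single libraries carried these values: 1 library of N+P C1 replicate 2 had 27226 of the *Igha* counts of that mouse and the other 185. *Igkc*, the kappa constant region, was at 688 CPM in Naive replicate 1 and at 717 in N+P C1 replicate 3, and *Jchain*, which joins IgA and IgM chains, was at 121, 0.0331 and 0.151 CPM in Naive and at 13.1, 385 and 157 in N+P C1.

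Of 12 B cell genes listed, 9 were tested and 0 had an unadjusted p under 0.05. *Ms4a1* and *Pax5* were under 1 CPM in all 6 samples. The list's sum was 683 to 2075 CPM in Naive and 748 to 1565 in N+P C1, most of it from *Ighm*. Of 14 plasma cell genes, a list added after the data had been seen, 2 of the 12 tested had an unadjusted p under 0.05 and both were higher (*Igha* and *Iglv1*), with sums of 702 to 2263 CPM in Naive and 914 to 3225 in N+P C1. By mouse the plasma cell sums were 914, 3225 and 1985 CPM in N+P C1 replicates 1, 2 and 3. The part of these transcripts in the other results was not tested.

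Myeloid genes had 2 of 13 lower in N+P C1 at an unadjusted p under 0.05, *Lyz2* and *Itgam*, where 1.38% of all genes were lower, and 0 higher. The median of the list was -0.14, but -1.53 with Naive and N+P C1 alone in the fit and 0.0 without Naive replicate 1 or 2. *Lyz2*, lysozyme, was at 8.89, 40.5 and 0 CPM in Naive and at 0, 0 and 0.0287 in N+P C1, with sums over the list of 64.8 to 158.5 and 65.2 to 86.5 CPM. The CD4 and regulatory T cell list (0 higher and 1 lower, *Il2ra*, of 9; sums 56.9 to 91.0 and 83.0 to 111) and the NK list (0 of 9; sums 39.2 to 61.9 and 41.8 to 72.4) overlapped between groups. Red cell and platelet genes summed to at most 6.17 CPM in any sample.

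Milk protein transcripts were found in 1 of the 6 samples. In N+P C1 replicate 3, *Csn1s2a*, a casein, was at 19.7 CPM, *Csn2*, beta-casein, at 7.95 and *Wap*, whey acidic protein, at 5.25, and all 3 were at 0 in the other 5 samples. All the counts came from 1 of the 2 libraries of that mouse, with 687 counts of *Csn1s2a*, 277 of *Csn2* and 183 of *Wap* beside 0 in the other library. Keratins of epithelial cells, *Krt8* and *Krt18*, were at 0 in all 6 samples. The whole list of lactating mammary gland genes had 5 of 14 members tested and 0 at an unadjusted p under 0.05, with sums of 28.8 to 63.5 CPM in Naive and 24.8 to 98.5 in N+P C1. Without this mouse the count of effector and memory genes at an unadjusted p under 0.05 was 8. The part of the milk protein transcripts in the other results was not tested.

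**Figure D5:**
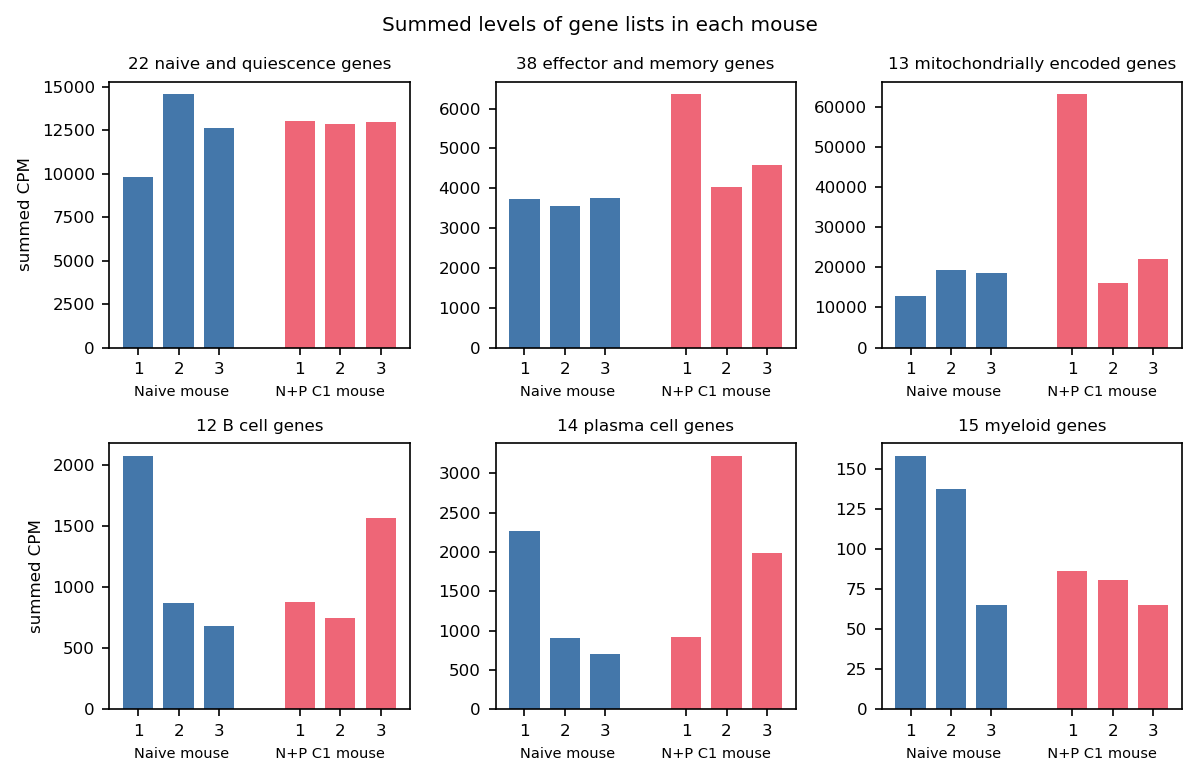
Summed CPM of the genes of 6 lists in each of the 3 Naive and 3 N+P C1 mice. N+P C1 replicate 1 stands apart in mitochondrially encoded genes at 63160 CPM, and the naive and quiescence sums of the 3 N+P C1 mice lie inside the range of the Naive mice.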

How the data were processed

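RNA-Seq libraries were made with SmartSeq2 from 200 sorted T_FGS each, without molecular identifiers, and sequenced in 1 run. Per the labels and the study's methods, the authors trimmed reads with cutadapt 3.4, aligned them with STAR 2.6.1b to GRCm39, counted uniquely mapped reads per gene with featureCounts 2.0.1 and deposited raw counts. The strand setting and annotation release are not given in the sources used here. The table lists 55359 genes, of which 54749 were placed with GENCODE M39.

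Technical libraries of a mouse were summed. A column with the same counts in Naive and in another group was left out, and 2 S+P C7 columns of different mice whose log2 levels correlated at 0.9986 across genes (technical pairs at most 0.9527) were averaged. All 30 samples of 7 groups entered edgeR 4.0.16 (TMM, low-count genes removed by filterByExpr at 10 counts, a robust quasi-likelihood test, two-sided), with Benjamini-Hochberg adjustment over 19657 genes. Called genes had adjusted p below 0.1 and a log2 fold change beyond 0.9 in size. Levels are CPM on TMM-scaled libraries unless said to be by library size. Intervals are 95% intervals from the fit. A floor of 3 counts covers counting error only, since reads without molecular identifiers are not independent molecules. The libraries had 12214673 to 26400797 counts. Labels number the mice, and whether mice were litter mates is not stated.

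Named genes were list members, the 10 leading genes in each direction (mean of at least 10 CPM, no overlap between groups, smallest unadjusted p), genes called in related comparisons and genes with the largest share of counts; the genes called under an alternative, the milk protein and immunoglobulin transcripts and *Nrp1*, *Casp9* and *Cybb* were picked once their values were known. The members and lists were chosen with earlier results of these data known. DESeq2 1.42.0 and the other alternatives are given in the closing section. The code was tested on simulated data. R 4.3.3, Python 3.11.15, pandas 2.3.3, scipy 1.17.1 and matplotlib 3.10.9 were used. Flow cytometry and ATAC-Seq were not analysed here, and some genes are not reported here.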

Additional observations from a re-analysis of the deposited data

How the results depend on the processing

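Over 22 alternatives, 1240 of 1365 recomputed gene values kept their direction and their side of the threshold, 97 kept the direction and became called, 26 in 8 genes turned direction and 2 came to 0. The count of called genes was 0 with RLE or library-size scaling, without rRNA genes, without the filter and with a mean of at least 10 CPM. It was also 0 with Naive and N+P C1 alone, with the identical column kept, with 2 S+P C7 mice and with library B alone. A stricter adjusted p or another fold-change limit could only give 0, since the lowest adjusted p was 0.464 in edgeR's test. Fits on separate libraries treat the libraries of a mouse as independent. The count of called genes was 610 with DESeq2 on summed counts, 553 on separate libraries and 214 with Naive and N+P C1 alone. With edgeR it was 9 on separate libraries, 3 with N+P C5 as the only other group (*Bhlhe40*, *Cybb* and *Lag3*), 19 without samples under 9000 genes detected, and 0 to 1 without 1 mouse (*Gzmk*, without N+P C1 replicate 2). With the replicate number as a block it was 1 (*Iglv1*). The r of deviations was 0.020, 0.016 and 0.040 for same-numbered mice and -0.037 to 0.013 for the other pairs. Gates of the same mouse also gave values this small (below), so r cannot tell whether same-numbered mice shared a batch. Between N+P C5 and N+P C1, gates of the same mice, the count of called genes was 1, and 29 with the mouse as a block and 51 without the block when only these groups were fitted, both chosen after seeing the data (same-mouse r of 0.0656, 0.0173 and 0.0581). DESeq2 on Naive and N+P C1 alone and library B alone were chosen after seeing the data. The 634 genes at an unadjusted p under 0.05 became 1173 with DESeq2, 1038 with DESeq2 on separate libraries, 1290 with edgeR on these, 1231 without the filter, 71 with a mean of at least 10 CPM, 395 with Naive and N+P C1 alone, 1177 with DESeq2 on these, and 401 to 550 without 1 mouse.

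Genes that turned sign lay near 0, apart from *Il2ra* and *Igkc*. *Tox* was 0.0456 with library size and 0.28 with library B. *Izumo1r* was 0.14 with DESeq2 and 0.13 with edgeR on separate libraries, and 0.0914 with the block. *Il7r* was 0.0606 with the block. *Lef1* was 0.0559 with library size and 0.0638 with library B. *Cd44* was 0.0556 with library size, 0.0486 with the block and 0.18 with library B. *Il2ra* was 3.61 with library B. Without 1 mouse the ranges were -0.21 to 0.11 for *Tox*, -0.44 to 0.74 for *Izumo1r*, -0.45 to 0.45 for *Il7r*, -0.00089 to 0.19 for *Tcf7*, -0.18 to 0.0864 for *Lef1*, -0.37 to 0.26 for *Cd44* and -2.44 to 8.94 for *Igkc*.

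Of 550 list medians 82 moved, most in lists of other cell types. Without 1 mouse the median ranged from 0.50 to 0.93 for effector genes, -0.76 to -0.16 for antigen response, -0.93 to -0.0553 for stress, -0.47 to 0.0 for steroid, -0.70 to 0.0427 for cell cycle, -0.25 to 0.11 for survival, 0.39 to 1.58 for mitochondrial, -0.19 to 0.0106 for GIMAP, 0.0202 to 1.90 for B cell, -0.25 to 0.0 for myeloid, 0.0 to 0.60 for CD4, 0.12 to 1.33 for NK, 0.0 to 2.90 for red cell, 0.0 to 0.85 for mammary and 0.93 to 5.88 for plasma cell genes, and -0.19 to 0.24 for genes called in S+P C7. With the identical column kept it was 0.46 for effector, 0.97 for B cell, -0.63 for myeloid, 0.24 for NK, 2.49 for red cell, 0.60 for mammary and 3.39 for plasma cell genes. With the block it was -0.20 for antigen response, 1.32 for B cell, -1.02 for myeloid, 1.44 for NK, -1.15 for red cell, -0.76 for mammary and 3.33 for plasma cell genes. With DESeq2 on separate libraries it was 0.0430 for survival, 0.91 for B cell, -0.0208 for myeloid, 1.17 for NK and 2.66 for red cell genes. With edgeR on these it was 0.89 for B cell, -0.77 for myeloid, 2.05 for red cell and 2.80 for plasma cell genes. With library B it was 0.75 for B cell, 0.0 for myeloid, 0.15 for NK, 0.52 for red cell and 0.25 for plasma cell genes. With library size it was -0.0541 for myeloid and 2.36 for red cell genes. With a mean of at least 10 CPM it was -1.15 for myeloid, 4.69 for red cell, -0.0289 for mammary and 1.23 for plasma cell genes. With Naive and N+P C1 alone it was -1.53 for myeloid, -0.93 for red cell, -0.0772 for mammary and 0.24 for plasma cell genes. With N+P C5 added it was -1.16 for myeloid, -0.18 for red cell, -0.0781 for mammary and 0.24 for plasma cell genes. With DESeq2 on summed counts it was 8.82 for red cell and 2.51 for plasma cell genes, and with Naive and N+P C1 alone -1.20 for myeloid, 3.08 for red cell and 2.51 for plasma cell genes. The cause of these shifts was not tested.

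With 3 mice a group and 200 cells a library, low genes rest on single libraries.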
